A study of Homo sapiens with 18 samples.

Results

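The 10 genes described here are ligands, receptors, inhibitors and targets of transforming growth factor beta (TGF-beta), out of 18417 genes measured in endothelial cells. They are TGFB1, TGFB2, TGFBR1, TGFBR2, ENG, SMAD6, SMAD7, TGFBI, CCN2 and ID1. The list was chosen partly on measured values, because TGFBI and TGFB2 had changed in these arrays. For these 2 genes the differences against the bead control are therefore a description, with no test, and the other comparisons share the same EV arrays. Which comparison the choice used is not recorded, so the tests of these 2 genes elsewhere are not independent of it. Each gene had 1 probe set, and no filter on low values was used, so that all 10 entered every fit.

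Human umbilical vein endothelial cells (HUVEC), labelled a normal endothelial cell line and obtained from ATCC, were measured on 18 Affymetrix whole-transcript arrays, 3 in each of 6 groups. In 4 groups the cells were co-cultured for 3 days with bead-captured extracellular vesicles (EVs), small membrane sacs released by cells. The groups were JinB8 CD63+ EVs, JinB8 MHC1+ EVs, Jurkat CD63+ EVs and Jurkat MHC1+ EVs. Jurkat is a human T cell leukaemia line, JinB8 is its derivative without the receptor CD47, and the beads bound either CD63, a tetraspanin, or MHC class 1 (MHC1). The fifth group received IgG beads alone for 3 days, and the sixth was untreated HUVEC, for which no time is given.

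Several features of the design limit these groups. The concentrated medium of each T cell line was pooled before the vesicles were purified, and separate EV preparations are not known to stand behind the arrays. No label ties the arrays of a group to separate HUVEC cultures, and p-values then describe the spread between arrays, which may be technical. The free text of 5 JinB8 arrays carries other numbers after the stem, whereas the bracketed name of all 6 reads JINB8, and the bracketed name was followed.

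TGF-beta ligands are secreted in a latent form and, once released, bind the type II receptor TGFBR2, which activates the type I receptor TGFBR1 and through it the SMAD transcription factors. Endothelial cells also carry the co-receptor endoglin (ENG) and a BMP-responsive branch of the pathway, whose targets include the ID genes. SMAD6 and SMAD7 are inhibitory SMADs that are induced by the pathway and restrain it.

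The promoters of TGFB2, TGFBI and CCN2 are shown because these genes carry the differences described below. Each run holds the 250 bases before the start of the gene, 5′ to 3′ on the gene's strand, from RefSeq (GRCh38.p14), and capitals mark CAGAC or its reverse complement, the core of the SMAD-binding element. The TGFB2 window is chr1:218345086-218345335 on the plus strand, the TGFBI window is chr5:136028738-136028987 on the plus strand, and the CCN2 window is chr6:131951373-131951622 on the minus strand.
TGFB2: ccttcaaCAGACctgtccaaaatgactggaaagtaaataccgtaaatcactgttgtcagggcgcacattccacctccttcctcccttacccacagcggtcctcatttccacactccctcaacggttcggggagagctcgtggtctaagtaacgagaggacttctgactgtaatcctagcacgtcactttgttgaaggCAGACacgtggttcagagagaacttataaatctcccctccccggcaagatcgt
TGFBI: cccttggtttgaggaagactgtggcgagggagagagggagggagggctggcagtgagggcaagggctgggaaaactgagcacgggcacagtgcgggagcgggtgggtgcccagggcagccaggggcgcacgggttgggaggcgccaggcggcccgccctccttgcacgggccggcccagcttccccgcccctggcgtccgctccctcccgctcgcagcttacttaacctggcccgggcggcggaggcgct
CCN2: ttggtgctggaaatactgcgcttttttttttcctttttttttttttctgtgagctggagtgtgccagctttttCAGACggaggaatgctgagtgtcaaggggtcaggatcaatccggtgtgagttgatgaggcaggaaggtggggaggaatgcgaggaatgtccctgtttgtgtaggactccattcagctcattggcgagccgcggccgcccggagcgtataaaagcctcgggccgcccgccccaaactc
CAGAC was found 2 times before TGFB2, at -243 and -53 from the start, 1 time before CCN2, at -177, and 0 times before TGFBI. It occurs on either strand in 38.0% of 35116 RefSeq promoters of the same length, so that its presence is common. The TATA box letters TATAAA stood at -29 before TGFB2 and at -32 before CCN2 and are held by 10.7% of these promoters. The TGFBI window held GGCGCC, a BMP-responsive element, at -111 (16.4% of promoters). TGANTCA, the AP-1 element, matched 0 times in these 3 windows and occurs in 6.57% of promoters. No overlap between the motifs was found, and a match shows only that the letters are present.

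All levels below are log2 RMA signal, and all differences are log2 differences between group means. Replicate 3 of both control groups stood apart from every other array. The median correlation with the remaining 16 arrays was 0.635 for bead replicate 3 and 0.647 for untreated replicate 3, whereas no pair among the 16 fell below 0.932. The SD over all probe sets was 1.57 and 1.56 in these 2 arrays, against 2.01 to 2.25 in the 16. In them 8 of the 10 genes lay below the mean of the other 2 arrays of their group, by up to 5.04 (TGFBR2, beads), and SMAD6 and SMAD7 lay above it. The mean over 12 endothelial markers was 6.13 in bead replicate 3 and 7.02 in untreated replicate 3, against 9.11 to 9.35 in the 16 arrays, where all 12 exceeded the median gene. On average over the 2 discordant arrays, 11 of the 12 still exceeded it. There CLDN5 (7.76 against 6.21) and EGFL7 (8.32 against 7.91) averaged higher than in the 16, and the other endothelial markers lower. The mean over 10 T cell markers was 3.75 to 4.25 in the 16 arrays, with 0 of the 10 above the median gene, and 4.79 to 4.95 in the 2 discordant arrays, with 3 above it. Over 10 fibroblast and smooth muscle markers it was 4.37 to 5.10 in the 16 arrays, with 2 above the median gene, and 5.55 to 5.76 in the 2, with 6 above it. Over 6 monocyte markers it was 4.69 to 5.21 in the 16 arrays and 5.00 to 5.18 in the 2. Results are therefore given in all 18 arrays and in the 16 without these 2. In RNA from whole cultures, fewer cells of a type and less RNA per cell cannot be told apart. Why the 2 discordant arrays differ from the others was not tested.

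**Figure D1:**
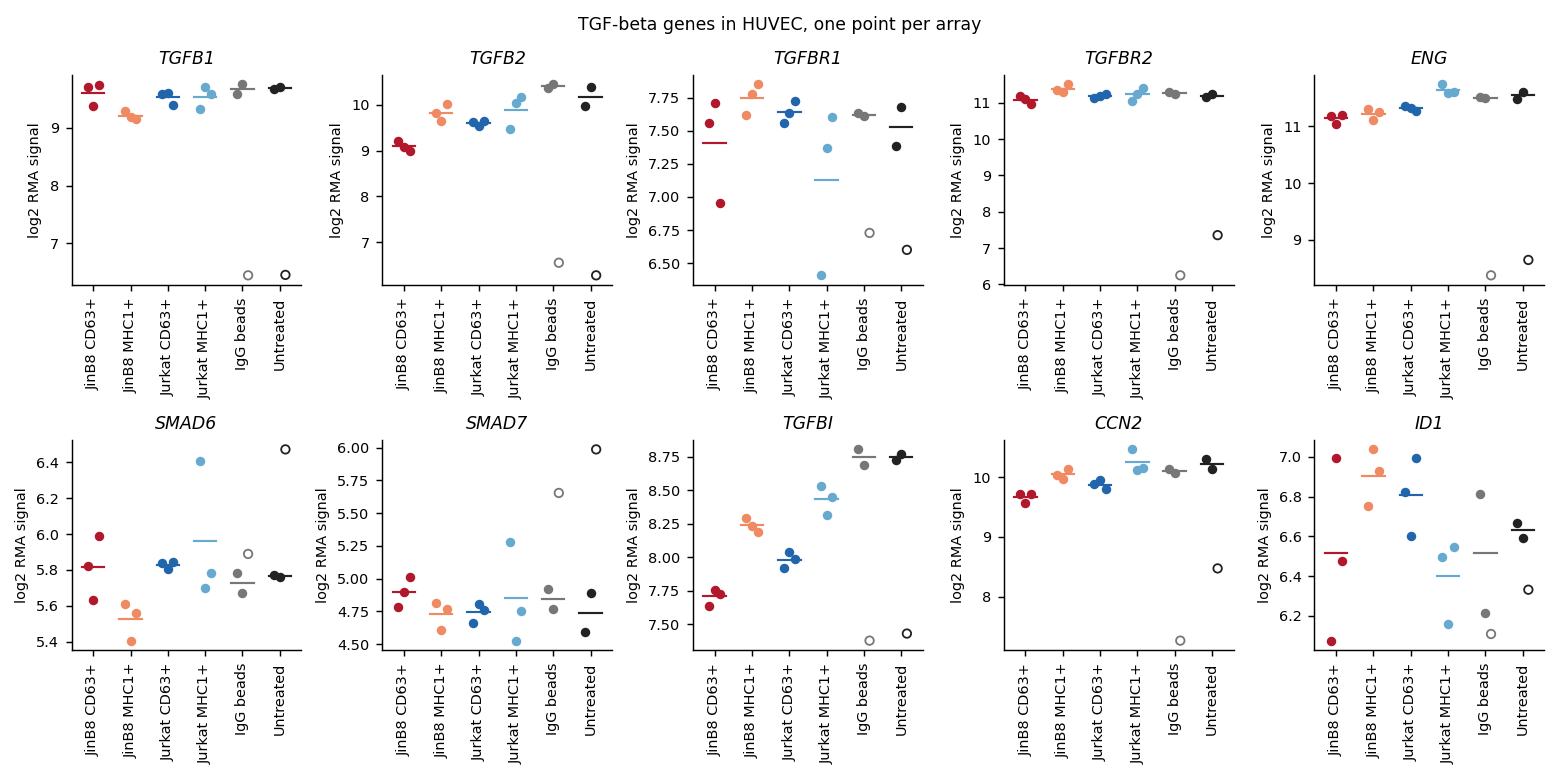
Log2 RMA signal of the 10 genes, 1 panel a gene, with 1 point per array and a line at the group mean without replicate 3 of both controls. Open circles are these 2 control arrays, which lie far below the others for TGFB1, TGFB2, TGFBR2, ENG and CCN2. The TGFBI panel shows the 4 EV groups at separate levels, with JinB8 CD63+ lowest at 7.64 to 7.76.

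TGFBI encodes a secreted matrix protein that is a classical TGF-beta target. Its level was 7.64, 7.76 and 7.73 with JinB8 CD63+ EVs and 8.29, 8.24 and 8.19 with JinB8 MHC1+ EVs. It was 7.92, 8.04 and 7.99 with Jurkat CD63+ EVs and 8.53, 8.31 and 8.45 with Jurkat MHC1+ EVs. The levels were 8.81, 8.69 and 7.38 with IgG beads and 8.73, 8.77 and 7.43 in untreated cells. Without the 2 discordant arrays the 4 control values lay above all 12 EV values. From low to high, the group means were 7.71 (JinB8 CD63+), 7.98 (Jurkat CD63+), 8.24 (JinB8 MHC1+), 8.43 (Jurkat MHC1+) and 8.75 in both control groups, and only the 2 control groups overlapped with their neighbour in this order. How many of all genes had groups apart in this way was not counted. Genes with all 12 EV arrays below the 4 remaining control arrays made up 0.239% of the 18417, and TGFBI was 1 of the 10 members among them. Since the bead arrays are among these controls and the choice may have used them, this is a description only. Against all 6 control arrays TGFBI overlapped, since both discordant arrays lay below every EV array.

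TGFB2, the ligand that endothelial cells secrete beside TGFB1, had levels of 9.21, 9.07 and 9.0 with JinB8 CD63+ EVs and 9.82, 9.64 and 10.02 with JinB8 MHC1+ EVs. It had 9.63, 9.53 and 9.64 with Jurkat CD63+ EVs and 9.47, 10.03 and 10.18 with Jurkat MHC1+ EVs. The controls had 10.37, 10.45 and 6.55 with IgG beads and 9.96, 10.40 and 6.28 without treatment. JinB8 CD63+ lay below every array of the other groups apart from the 2 discordant ones. Jurkat CD63+ and Jurkat MHC1+ overlapped through Jurkat MHC1+ replicate 1, and Jurkat MHC1+ overlapped with untreated cells.

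TGFB1, the most widely expressed ligand of the family, showed no such order. Its lowest EV group was JinB8 MHC1+, with 9.28, 9.18 and 9.14, against 9.33, 9.71 and 9.58 with Jurkat MHC1+ EVs. It had 9.70, 9.38 and 9.73 with JinB8 CD63+ EVs, 9.58, 9.59 and 9.40 with Jurkat CD63+ EVs, 9.58, 9.75 and 6.45 with beads and 9.66, 9.70 and 6.46 in untreated cells. JinB8 MHC1+ therefore lay below every other group except the discordant arrays. For a single group lying lowest, here as for TGFB2, no share over all genes was counted.

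The comparison with the bead control asks what EVs do to the cells beyond the bead. In the 16 arrays the differences of the pooled EV groups from beads, given without a test, were -0.66 ± 0.10 (SE, 12 EV arrays against 2 bead arrays) for TGFBI and -0.81 ± 0.16 for TGFB2. By group, TGFBI differed by -1.04 with JinB8 CD63+, -0.51 with JinB8 MHC1+, -0.77 with Jurkat CD63+ and -0.31 with Jurkat MHC1+ EVs. TGFB2 differed by -1.32, -0.58, -0.81 and -0.52 in the same groups. In the 18 arrays the pooled differences were -0.20 ± 0.28 for TGFBI and 0.48 ± 0.77 for TGFB2. Of the other 8 members, 0 were called by limma at an adjusted p under 0.05 in either set, pooled or by group, and 0 had an unadjusted p under 0.05 in the pooled comparison, where 3.83% of all genes did in the 18 arrays and 3.21% in the 16. By group, CCN2 and ENG with JinB8 CD63+ EVs, and TGFB1 and ENG with JinB8 MHC1+ EVs, had an unadjusted p under 0.05 in the 16 arrays, beside 6.7% and 5.18% of all genes. In the 18 arrays 1 member did in the JinB8 MHC1+ group, beside 5.04% of all genes. Of all genes, 0.00543% were called in the pooled comparison in the 18 arrays and 0.0434% in the 16. For the JinB8 CD63+ group the shares were 0.00543% and 0.0923%, and for JinB8 MHC1+ they were 0.0434% and 0.212%. They were 0.00543% in both sets for Jurkat CD63+ and 0.0% in both for Jurkat MHC1+.

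The direction against beads turned with the 2 discordant arrays for most members. In the 18 arrays 8 of the 10 differences were above 0, among them TGFBR2 at 1.62 ± 0.88, ENG and TGFB1 at 0.87 and CCN2 at 0.80. In the 16 arrays 8 of the 10 were below 0, with TGFBR2 at -0.06, ENG at -0.18, TGFB1 at -0.20 and CCN2 at -0.15. The median of the 10 was 0.38 in the 18 arrays and -0.14 in the 16, beside medians over all genes of -0.06 and 0.01.

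**Figure D2:**
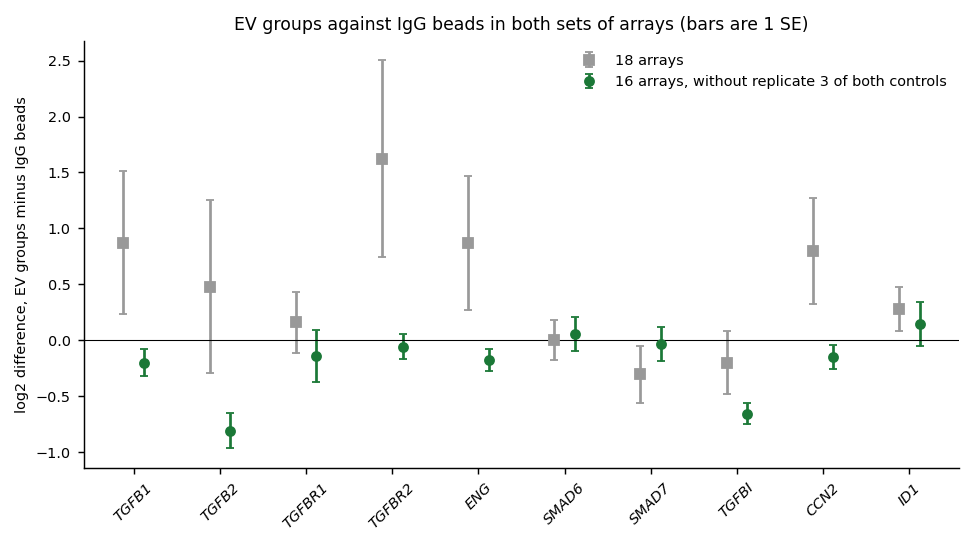
Log2 difference of the 4 EV groups together from IgG beads for each gene, in 18 arrays (squares) and in 16 arrays (circles). Bars are 1 SE. TGFBR2 stands at 1.62 in the 18 arrays and at -0.06 in the 16, while TGFBI is below 0 in both.

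Against untreated cells, where the EV arrays are those used in the choice of TGFBI and TGFB2, 0 of the 10 members were called in the 18 arrays (limma, lowest adjusted p = 0.42), 0 had an unadjusted p under 0.05 (5.84% of all genes did), and 0.00543% of all genes were called. In the 16 arrays TGFBI fell by 0.66 ± 0.10 (SE, 12 EV arrays against 2 untreated arrays; limma adjusted p = 0.015), and it was the 1 member called, against 0.0326% of all genes, while 4 had an unadjusted p under 0.05, as did 3.04% of all genes. This call rests on both untreated arrays, since limma's adjusted p was 0.34 without replicate 1 and 0.52 without replicate 2, with falls of 0.68 and 0.64. Quantile normalization of the 16 arrays again also ended it (adjusted p = 0.19, limma). TGFB2 was at -0.58 ± 0.16 (limma adjusted p = 0.76). Between IgG beads and untreated cells, the 10 members gave 0 calls in either set, where 0.0% of all genes were called in both. An unadjusted p under 0.05 was reached by 0 members, and by 1.11% of all genes in the 18 arrays and 1.02% in the 16. TGFBI differed by less than 0.01 there in the 16 arrays, and TGFB2 by 0.23 ± 0.21.

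CD63+ and MHC1+ EVs were compared next, which asks whether the captured subset of vesicles matters to the cells. These arrays do not include the discordant controls, so that the differences are the same in the plain fits of 18, 16 and 12 arrays and only the SE changes. Array weights, quantile normalization again and the array SD as a covariate can change the differences. TGFBI fell by 0.49 with CD63+ relative to MHC1+ EVs, and ranged over 7.64 to 8.04 in the 6 CD63+ arrays and over 8.19 to 8.53 in the 6 MHC1+ arrays. The groups did not overlap. In the 16 arrays the SE was 0.07 and limma's adjusted p was 0.032, and TGFBI was the 1 of 10 members called, against 0.0217% of all genes. As TGFBI was listed because it had changed in these arrays, this call is not independent of the choice. In the 18 arrays the SE was 0.25 and limma's adjusted p was 1.00, with 0 of 10 members and 0.0109% of all genes called. At an unadjusted p under 0.05 there were 5 members in the 16 arrays (4.2% of all genes) and 0 in the 18 (0.402%). The call was also lost in a fit of the 12 EV arrays alone (limma adjusted p = 0.10), and with each of the 16 arrays left out in turn the adjusted p ranged from 0.017 to 0.18, under 0.05 in 3 of the 16 fits.

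CCN2, or connective tissue growth factor, is a secreted matricellular protein that TGF-beta induces. Its level was 9.72, 9.56 and 9.71 with JinB8 CD63+ EVs and 10.03, 9.97 and 10.14 with JinB8 MHC1+ EVs. It was 9.88, 9.95 and 9.80 with Jurkat CD63+ EVs and 10.46, 10.12 and 10.16 with Jurkat MHC1+ EVs. The controls had 10.14, 10.07 and 7.27 with beads and 10.30, 10.14 and 8.47 without treatment. All 6 CD63+ arrays lay below all 6 MHC1+ arrays, and the lowest was in the JinB8 CD63+ group. The difference was -0.38 ± 0.08 (SE, 6 against 6 arrays, 16-array fit), and limma did not call it (adjusted p = 0.41). TGFBI and CCN2 were the 2 members whose 6 CD63+ arrays all lay below the 6 MHC1+ arrays, and 0.141% of all genes did so. TGFB2 differed by -0.52 ± 0.12 (limma adjusted p = 0.49), and its CD63+ arrays, at 9.0 to 9.64, overlapped with the MHC1+ arrays, at 9.47 to 10.18, through 1 MHC1+ array. That array, Jurkat MHC1+ replicate 1, had an SD over all probe sets of 2.01, against 2.05 to 2.25 in the other 15. Without it TGFB2 fell by 0.62 ± 0.10 and TGFBI by 0.47 ± 0.07 (limma adjusted p = 0.017 each), the 2 members called beside 0.0706% of all genes. Both were listed because they had changed, so these calls are not independent of the choice either.

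The other 7 members differed by -0.21 (ENG) to 0.19 (TGFB1) between CD63+ and MHC1+ EVs, and 0 of them were called. Over the 10, the median difference was -0.08, beside 0.01 over all genes. Within JinB8 alone, TGFB2 stood at -0.74 ± 0.17, TGFBI at -0.53 ± 0.10 (limma adjusted p = 0.12 and 0.050) and CCN2 at -0.38 ± 0.12. Within Jurkat they stood at -0.30 ± 0.17, -0.45 ± 0.10 and -0.37 ± 0.12. Members called numbered 0 in each line, in both sets of arrays, and 5 members within JinB8 and 3 within Jurkat had an unadjusted p under 0.05 in the 16, where 16.6% and 11.0% of all genes did. Of all genes, limma called 0.00543% within JinB8 in the 18 arrays and 0.185% in the 16, and 0.0% and 0.00543% within Jurkat. The difference between the 2 lines in this effect was tested as an interaction, which called 0 members and 0.0% of all genes in the 18 arrays, and 0 members and 0.0163% of all genes in the 16, where 3 members and 28.7% of all genes had an unadjusted p under 0.05. For TGFBI the interaction was -0.08 ± 0.14, and for CCN2 -0.01 ± 0.17, in the 16 arrays.

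**Figure D3:**
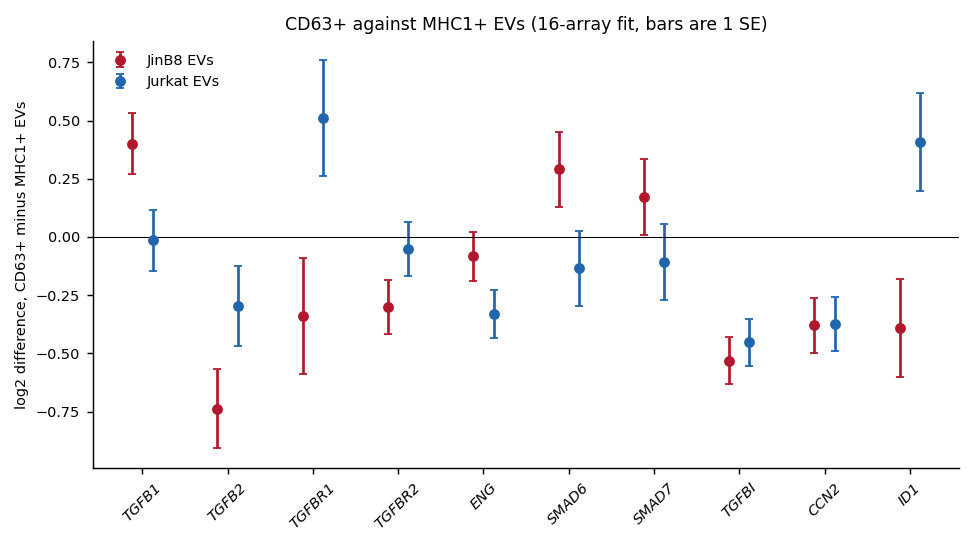
Log2 difference of CD63+ from MHC1+ EVs for each gene, for JinB8 EVs (red) and Jurkat EVs (blue). Bars are 1 SE of the 16-array fit. TGFB2, TGFBI and CCN2 lie below 0 for both lines, while TGFBR1 and ID1 lie on opposite sides of 0.

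JinB8 and Jurkat EVs were compared to ask what the loss of CD47 on the donor cells changes, although with 1 deficient line CD47 and other differences between the lines cannot be told apart. TGFBI differed by -0.23 ± 0.07 in the 16 arrays and was lower with JinB8 EVs under either capture, by 0.27 for CD63+ and by 0.19 for MHC1+, but limma did not call it (adjusted p = 0.72). TGFB2 differed by -0.29 ± 0.12, with most of the gap under CD63+ capture (-0.51 ± 0.17, against -0.07 ± 0.17 under MHC1+ capture). Over all 6 arrays of each line, 0 members were apart with JinB8 lower, where 0.206% of all genes were. Of the 10 members, 0 were called in the comparison of the lines or within either capture, in both sets of arrays. In the 16 arrays an unadjusted p under 0.05 was reached by 4 members between the lines, 2 under CD63+ and 5 under MHC1+ capture. The shares of all genes at that p were 6.52%, 4.02% and 29.6%, so that under MHC1+ capture it was common. Of all genes, 0.0% were called between the lines in the 18 arrays and 0.0543% in the 16, 0.0% in both sets under CD63+ capture, and 0.0326% and 0.386% under MHC1+ capture.

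Endoglin, the co-receptor of endothelial cells, gave the lowest adjusted p between the lines. ENG had 11.31, 11.11 and 11.26 with JinB8 MHC1+ EVs and 11.75, 11.60 and 11.61 with Jurkat MHC1+ EVs. It had 11.19, 11.04 and 11.20 with JinB8 CD63+ EVs and 11.36, 11.33 and 11.27 with Jurkat CD63+ EVs. Its level was 11.52, 11.50 and 8.37 with beads and 11.49, 11.61 and 8.64 in untreated cells. JinB8 MHC1+ lay below Jurkat MHC1+ in all arrays, as JinB8 CD63+ did below Jurkat CD63+. The share of all genes apart in this way was not counted. Under MHC1+ capture 29.6% of all genes had an unadjusted p under 0.05 between the lines in limma's 16-array fit. The MHC1+ difference was -0.43 ± 0.10 (limma adjusted p = 0.073) and that over both captures -0.30 ± 0.07 (adjusted p = 0.42).

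TGFBR1, the type I receptor kinase, ranged over 6.96 to 7.71 with JinB8 CD63+ EVs, 7.62 to 7.85 with JinB8 MHC1+ EVs, 7.55 to 7.72 with Jurkat CD63+ EVs and 6.41 to 7.60 with Jurkat MHC1+ EVs. All neighbours in the order of its group means overlapped. Its values followed the SD of the arrays (r = 0.92 over 16 arrays), with the lowest values in Jurkat MHC1+ replicate 1 at 6.41 and JinB8 CD63+ replicate 3 at 6.96. These were also the 2 lowest arrays in SD, at 2.01 and 2.05. With the array SD as a covariate, TGFBR1 differed between CD63+ and MHC1+ EVs of JinB8 by 0.30 ± 0.13, against -0.34 ± 0.25 without it, and between JinB8 and Jurkat MHC1+ EVs by -0.01 ± 0.13, against 0.62 ± 0.25 without it. TGFBR2, the ligand-binding type II receptor, ranged over 10.97 to 11.20 with JinB8 CD63+, 11.31 to 11.52 with JinB8 MHC1+, 11.14 to 11.24 with Jurkat CD63+ and 11.05 to 11.41 with Jurkat MHC1+ EVs. It differed by -0.18 ± 0.08 between CD63+ and MHC1+ EVs in the 16-array fit and also moved with the array SD (r = 0.80), as a description over arrays that share groups. TGFB2 also moved with the array SD in part (r = 0.50), as did ID1 (0.54) and, inversely, SMAD7 (-0.55). For TGFBI, CCN2, ENG and TGFB1, r was 0.20, -0.08, -0.26 and -0.34.

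Neither inhibitory SMAD was called in a comparison of either set. SMAD6, which blocks mainly the BMP branch, ranged over 5.63 to 5.99 with JinB8 CD63+, 5.41 to 5.61 with JinB8 MHC1+, 5.81 to 5.84 with Jurkat CD63+ and 5.70 to 6.41 with Jurkat MHC1+ EVs. The highest value was again in Jurkat MHC1+ replicate 1, and SMAD6 ran against the array SD (r = -0.84). SMAD7, which blocks TGF-beta receptors, ranged over 4.53 to 5.28 in the 12 EV arrays and over 4.59 to 4.92 in the 4 control arrays, and all neighbours in the order of its group means overlapped. SMAD6 values lay around the median gene of these 16 arrays (5.55 to 5.62), and all SMAD7 values lay below it. At so low a signal, the lack of calls does not show that SMAD7 was unchanged. Its difference between EVs and untreated cells was 0.07 ± 0.15 in the 16 arrays and -0.35 ± 0.25 in the 18.

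ID1, a target of the BMP branch that restrains differentiation factors, varied widely within groups. It had 6.08, 6.99 and 6.48 with JinB8 CD63+ EVs and 6.75, 7.04 and 6.93 with JinB8 MHC1+ EVs. It had 6.83, 6.60 and 6.99 with Jurkat CD63+ EVs and 6.50, 6.16 and 6.55 with Jurkat MHC1+ EVs. Its differences between captures ran in opposite directions, at -0.39 ± 0.21 for JinB8 and 0.41 ± 0.21 for Jurkat, and limma did not call the interaction of -0.80 ± 0.30 (adjusted p = 0.14).

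The genes whose values ran most like TGFBI were looked up among all genes with an SD of at least 0.3 over the 16 arrays. The highest Pearson's r was with TAGLN (0.89), an actin-binding protein of smooth muscle and a TGF-beta target, followed by P3H2 (0.87), a collagen prolyl hydroxylase, TGFB2 (0.86), CEACAM1 (0.83), an adhesion molecule, and INHBA (0.82), the activin A subunit. INHBA was also the nearest gene to TGFB2 (0.94), followed by MCTP1 (0.93), ADGRG4 (0.92), RELN (0.92) and P3H2 (0.88). Within the 12 EV arrays, r with TGFBI was 0.90 for TAGLN, 0.79 for CEACAM1, 0.75 for TGFB2, 0.74 for INHBA and 0.66 for P3H2. These arrays share groups, and the EV arrays of a T cell line share pooled medium, so the correlations describe them only. That between TGFBI and TGFB2 is also not independent of the choice of these genes. TAGLN averaged 8.04 with JinB8 CD63+, 8.69 with JinB8 MHC1+, 8.34 with Jurkat CD63+ and 8.69 with Jurkat MHC1+ EVs, against 8.85 in the 4 controls. INHBA averaged 7.93, 8.63, 8.34 and 8.58 in the same EV groups, against 8.89 in the 4 controls. Both genes were lowest with JinB8 CD63+ EVs. So were P3H2 (6.39), CEACAM1 (6.62), MCTP1 (8.25), ADGRG4 (4.24) and RELN (7.45). All of these were picked for running like TGFBI or TGFB2, so this order follows from the pick.

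Among the members, TGFBI ran with CCN2 (r = 0.83 over 16 arrays and 0.92 over the 12 EV arrays) and with ENG (0.76 and 0.74). CCN2 and ENG ran together as well (r = 0.83 in both sets). TGFB1 ran with neither TGFB2 (0.16) nor TGFBI (0.11). As TGFBI and TGFB2 were listed because they had changed, correlations with either are not independent of the choice.

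**Figure D4:**
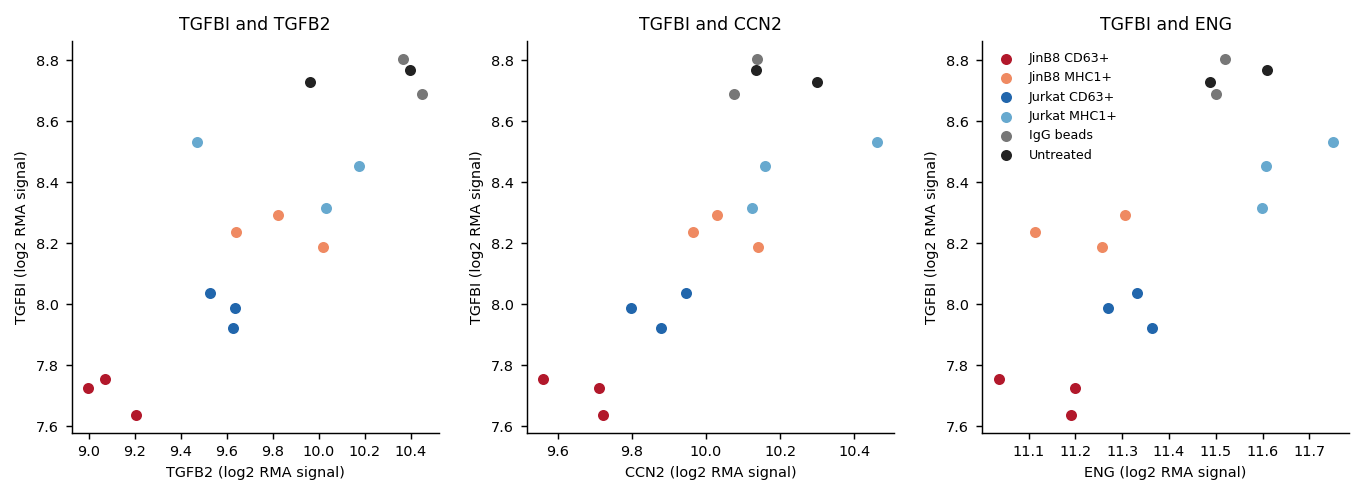
TGFBI level against TGFB2, CCN2 and ENG level in the 16 arrays, 1 point per array, all in log2 RMA signal. JinB8 CD63+ arrays lie at the lower left in each panel and the 4 control arrays at the top. The correlation is 0.86 for TGFB2, 0.83 for CCN2 and 0.76 for ENG. TGFBI and TGFB2 were listed because they had changed, so these values are not independent of the choice.

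Another 78 genes of the TGF-beta and BMP pathways were analysed. In limma's fits of the 18 and the 16 arrays, 0 of the 78 were called in any of the 14 comparisons. Between CD63+ and MHC1+ EVs in the 16 arrays, 47 of the 78 had a difference below 0 and 31 above, and 10 of the lower and 3 of the higher ones had an unadjusted p under 0.05, as did 4.2% of all genes. Of all genes, 48.1% had a difference below 0. The median of the 78 was -0.05, beside 0.01 over all genes. By role, 19 of the 23 TGF-beta targets had a difference below 0 in this comparison (median -0.10) and 2 of the 9 BMP targets did (median 0.03). In the 15 arrays 17 of the 23 and 2 of the 9 did, beside 46.4% of all genes. Both counts include members of the list above, and TGFBI was the 1 gene called in them. Of the 11 ligands 6 were below 0, of the 14 genes of latency and activation 10, of the 12 receptors and co-receptors 7, and of the 21 SMADs and regulators 8. TAGLN differed by -0.50 ± 0.12 (limma adjusted p = 0.46) and INHBA by -0.47 ± 0.13 (limma adjusted p = 0.63). BMP4 differed by -0.46 ± 0.11 and FSTL3 by -0.41 ± 0.11 (limma adjusted p = 0.52 and 0.62). NRROS went the other way, by 0.34 ± 0.09 (limma adjusted p = 0.63). Its CD63+ arrays (6.83 to 7.12) all lay above its MHC1+ arrays (6.44 to 6.78), as in 0.19% of all genes. In the 15 arrays without Jurkat MHC1+ replicate 1 as well, limma called INHBA within JinB8 at -0.70 ± 0.15 (adjusted p = 0.035) and TAGLN at -0.64 ± 0.16 (adjusted p = 0.047), 2 of the 78 genes, while 1.93% of all genes were called, a like share. It also called INHBA with JinB8 CD63+ EVs against beads, at -1.02 ± 0.17 (adjusted p = 0.014), 1 of the 78 genes beside 0.293% of all genes. The 15-array values of INHBA and TAGLN were picked out after they were seen.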

How the data were processed

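The deposited table gives no scale, and from their range its values were read as log2 signal after RMA. Per the submitters' processing notes they came from RMA in Affymetrix Expression Console, whose version is not given in the sources used here. The labels name Trizol and an RNeasy kit for the RNA, and the series design names another kit. The table held 33297 probe sets, of which 12083 had no gene and 1754 had several symbols in the platform annotation. For the 19460 with 1 symbol, the probe set with the highest mean was kept for each of 18417 genes. Precision is set by the number of arrays.

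Means of the 6 groups were fitted over all genes with limma 3.58.1 in R 4.3.3 (lmFit, eBayes, two-sided), with Benjamini-Hochberg adjustment across the 18417 genes, separately for 14 comparisons. Calls needed an adjusted p under 0.05. The fit was checked on simulated data. Summaries were made with pandas 2.3.3 and numpy 2.4.6 under Python 3.11.15, and figures with matplotlib 3.10.9.

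The members and lists were chosen with earlier results of these data known. The text names all 10 members, other pathway genes that were called, and the 5 genes with the highest correlation with TGFBI and with TGFB2. It also names BMP4, FSTL3 and NRROS, picked after their values were seen. Alternatives were 16 arrays, 15 arrays, array weights, quantile normalization again, the lowest 25% of genes left out, limma's trend and robust options, the 12 EV arrays alone, untreated cells as the control, and each array left out. The same settings within the 16 arrays, and the array SD as a covariate, were added after seeing the data. Array weights were estimated gene by gene. Hybridization batches were not analysed here, and the serial numbers of a group's arrays are adjacent, so batch and group cannot be told apart.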

Additional observations from a re-analysis of the deposited data

How the results depend on the processing

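Limits come first. Each control group has 2 arrays without its discordant one, no preparation or culture is known to be repeated, and no member has a second probe set to try. No paired analysis was possible because the labels give no replicate numbers shared between groups.

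Against beads, the 18-array differences of several members changed sign. With 16 arrays, 15 arrays and array weights they were -0.20, -0.18 and -0.17 for TGFB1, -0.81, -0.75 and -0.76 for TGFB2, -0.14, -0.048 and -0.054 for TGFBR1, and -0.057, -0.033 and -0.0064 for TGFBR2. They were -0.18, -0.19 and -0.16 for ENG and -0.15, -0.17 and -0.14 for CCN2. Quantile normalization again gave -0.20 for TGFBR1 and -0.13 for SMAD6, and untreated cells as the control gave -0.22 for SMAD6. Against untreated cells the same 3 settings gave -0.58, -0.52 and -0.38 for TGFB2, -0.26, -0.29 and -0.32 for CCN2, and -0.21, -0.23 and -0.17 for ENG, and quantile normalization again gave -0.22 for CCN2. The cause was not tested beyond leaving out the 2 discordant arrays.

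With each of the 18 arrays left out in turn, the differences from beads ranged from -0.20 to 1.45 for TGFB1, -0.81 to 1.14 for TGFB2, -0.66 to 0.058 for TGFBI, -0.14 to 0.31 for TGFBR1, -0.057 to 2.48 for TGFBR2, -0.18 to 1.40 for ENG, -0.054 to 0.055 for SMAD6 and -0.15 to 1.29 for CCN2. For TGFB2 with JinB8 CD63+ EVs they ranged from -1.32 to 0.63. From untreated cells they ranged from -0.66 to 0.012 for TGFBI, -0.58 to 1.48 for TGFB2, -0.26 to 0.65 for CCN2 and -0.21 to 1.27 for ENG.

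Counts of members called were 0 in every comparison in the 18 arrays. Between EVs and untreated cells they were 1 with 16 arrays, 15 arrays or array weights, beside 0.0326%, 0.147% and 1.59% of all genes. Between CD63+ and MHC1+ EVs they were 1 with 16 arrays and 2 with 15 arrays or array weights, beside 0.0217%, 0.0706% and 0.809% of all genes. Within JinB8 they were 2 with 15 arrays and 6 with array weights, where 1.93% and 19.2% of all genes were called. Array weights also gave 2 for JinB8 MHC1+ EVs against beads, 1 for CD63+ against MHC1+ EVs of Jurkat, 4 for JinB8 against Jurkat MHC1+ EVs and 3 for the interaction, beside 6.54%, 0.852%, 33.4% and 27.9% of all genes.

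Within the 16 arrays the count between EVs and untreated cells was 0 after quantile normalization again and 0 to 1 with an array left out. That between CD63+ and MHC1+ EVs was 0 after quantile normalization again, with trend and robust options or with the 12 EV arrays. It was 2 with 15 arrays (0.0706% of all genes), 3 with array weights (1.08%) or the array SD as a covariate (4.01%), and 0 to 2 with an array left out. Within JinB8 it was 2 with 15 arrays (1.93% of all genes), 6 with array weights (23.1%) and 0 to 2 with an array left out. Array weights gave 1 for JinB8 MHC1+ EVs against beads, 1 within Jurkat, 4 for JinB8 against Jurkat MHC1+ EVs and 3 for the interaction, beside 2.22%, 0.961%, 36.0% and 31.3% of all genes. With an array left out these last 2 were 0 to 3 and 0 to 1. The array SD as a covariate gave 1 for JinB8 CD63+ EVs against beads, beside 0.434% of all genes. For the other results the causes were not tested.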
